A study of Bos taurus with 24 samples.

Results

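The miRNAs described here are 8 that are made mainly by white blood cells or that are induced in inflamed tissue: bta-miR-142-5p, bta-miR-142-3p, bta-miR-223, bta-miR-150, bta-miR-155, bta-miR-146a, bta-miR-146b and bta-miR-342. They were chosen by name, with earlier results of these data known, and all 8 of them were present among the 796 miRNAs listed in the deposited count tables of both breeds. A miRNA is a small RNA that binds messenger RNAs and lowers their translation or stability. The leukocyte miRNAs are of interest in a mammary biopsy because the lactating gland always holds resident and passing white blood cells beside its epithelium. In bulk tissue, fewer or more leukocytes and less or more miRNA per leukocyte cannot be told apart.

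The members fall into groups by the cells in which they are best known. miR-142-5p and miR-142-3p are the arms of a single hairpin that is made in nearly all white blood cell lineages and that serves here as the pan-leukocyte member. miR-223 is the myeloid member, abundant in neutrophils and monocytes. miR-150 is the lymphoid member, abundant in mature resting lymphocytes. miR-155, which rises when lymphocytes and macrophages are activated, and the related miR-146a and miR-146b are the activation members. miR-146a is induced by NF-kappaB and lowers the TRAF6 and IRAK1 signalling that induced it. miR-342 is also abundant in lymphoid cells. In the RefSeq gene table of the bovine assembly ARS-UCD2.0, MIR342 overlaps EVL, and MIR142 and MIR223 each overlap a long non-coding RNA beside the protein-coding genes TSPOAP1 and VSIG4, while MIR155, MIR146A, MIR146B and MIR150 overlap no other listed gene. Strand was not considered in these overlaps.

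Small RNA libraries were made from mammary gland biopsies of mid-lactation dairy cows, 5 of the Holstein breed (HOLS) and 6 of the Montbeliarde breed (MONT). Each cow was biopsied at day 0, before feed restriction (CONT), and after 6 days of it (REST), which gave 10 HOLS and 12 MONT libraries. The labels set the restriction at 60% of the net energy for lactation, and the study's methods give another level. Biopsies were taken from alternate sides of the rear udder, and no cows were biopsied at both times without restriction, so that restriction, time, side and an earlier biopsy cannot be told apart. The study reported that a smaller part of the raw reads was left after cleaning in MONT than in HOLS, in both periods. It named lower library quality as a possible reason for finding no changed miRNA in MONT. Breed and library quality thus cannot be told apart. The labels also name a further HOLS cow that was not analysed here.

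Each library held between 6087865 and 18913916 miRNA counts, and the 8 members together took 0.255% to 0.829% of them. Levels are given as CPM, counts brought to a common library total after TMM scaling, the scaling that edgeR uses to make libraries comparable. The least abundant member, miR-223, had 30 to 544 counts per library and the most abundant, miR-142-5p, 11893 to 56134, so that counting error was larger for miR-223 than for any other member. As a check of the tissue, 10 of 12 epithelial miRNA names were present, and their summed level was 14940 to 59040 CPM over all libraries, against 2353 to 8699 CPM for the 8 members.

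The MONT cow numbered 9615 in the labels stood apart from the other cows. All 8 members were lower in REST than in CONT in this cow (0 of 8 higher), while 4 to 8 of 8 were higher in each of the other 10 cows. Its deviations from the group means in CONT and REST correlated at -0.24 over 388 miRNAs, against 0.06 to 0.74 in the other MONT cows and 0.29 to 0.54 in the HOLS cows. Its epithelial miRNAs moved the other way, from 21290 CPM in CONT to 37650 CPM in REST. Whether the CONT and REST libraries of this cow were exchanged cannot be told from the files, and the labels were kept. Results that rest on this cow are therefore given with and without it, a choice made after the data were seen.

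Over all 22 libraries, miR-142-5p was the highest member, with a mean of 2342 ± 641 CPM (SD) and rank 40 among all miRNAs. It was followed by miR-146b (1094 ± 843 CPM), miR-146a (422 ± 130 CPM), miR-342 (163 ± 43.7 CPM), miR-155 (133 ± 47.9 CPM), miR-150 (104 ± 34.6 CPM), miR-142-3p (96.6 ± 26.4 CPM) and miR-223 (13.1 ± 14.1 CPM, rank 196). Most neighbours in this order kept their places within a library: miR-142-5p exceeded miR-146b in 21 of 22 libraries, miR-146b exceeded miR-146a in 19, miR-342 exceeded miR-155 in 20 and miR-155 exceeded miR-150 in 19. miR-146a exceeded miR-342, and miR-142-3p exceeded miR-223, in 22 of 22. miR-150 and miR-142-3p did not separate, since miR-150 was the higher one in 13 of 22 libraries. Adapter ligation differs between miRNA sequences, so the order is that of counts, not of molecules.

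The members also differed in how much they varied from library to library. miR-142-5p, miR-142-3p, miR-342, miR-146a, miR-150 and miR-155 varied by a coefficient of variation of 26.8% to 36.0%, and their highest library was 2.38 to 3.35 times their lowest. miR-146b varied by 77.1% with a 15.7-fold range, and miR-223 by 108% with a 19.97-fold range. Without cow 9615 these were 62.9% and 8.95-fold for miR-146b and 77.3% and 10.8-fold for miR-223, against 26.0% to 33.0% and at most 3.21-fold for the other 6. These spreads pool both breeds and periods. The myeloid member and 1 of the activation members were thus the variable ones. The other activation members, miR-146a and miR-155, were among the even ones with the pan-leukocyte and lymphoid members.

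**Figure D1:**
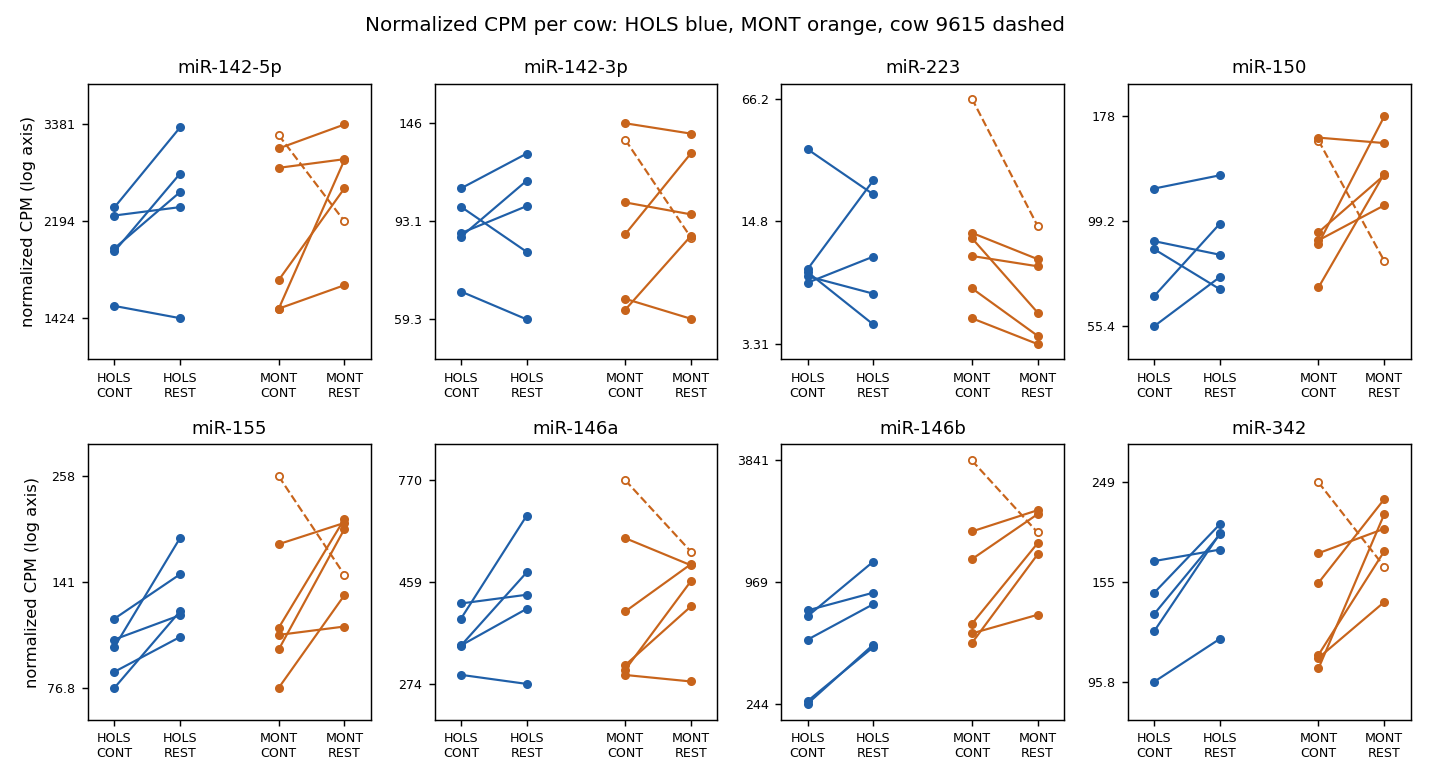
Normalized CPM of the 8 members in each library (vertical log axes, each with its own range), with a line from CONT to REST for each cow, HOLS in blue and MONT in orange. The dashed line with open points is cow 9615, which is lower in REST in all 8 panels. miR-146b, miR-155 and miR-342 are higher in REST in the other 10 cows, and miR-223 is lower in all 6 MONT cows.

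In HOLS, the activation members were higher after feed restriction. miR-146b, the most responsive of them, was at 244, 505, 703, 658 and 252 CPM in CONT in cows 1165, 8200, 9195, 1155 and 2182, and at 477, 754, 859, 1222 and 464 CPM in REST. It was higher in REST in 5 of 5 cows, although the levels of the 2 periods overlapped because the cows started from different levels. miR-155 was at 101, 76.8, 114, 97.1 and 84.2 CPM in CONT and at 116, 119, 147, 181 and 103 CPM in REST in the same cows, again higher in 5 of 5 with overlap. miR-146a was at 333, 412, 333, 381 and 287 CPM in CONT and at 482, 431, 401, 644 and 274 CPM in REST, higher in 4 of 5 cows, with the fall in cow 2182.

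miR-342 was also higher in REST in 5 of 5 HOLS cows. Its levels in the same order of cows were 133, 147, 171, 122 and 95.8 CPM in CONT and 194, 204, 181, 195 and 118 CPM in REST. miR-142-5p was at 1945, 1919, 2252, 2335 and 1504 CPM in CONT and at 2501, 2716, 2338, 3338 and 1424 CPM in REST, higher in 4 of 5 cows. miR-142-3p and miR-150 were each higher in 3 of 5 cows, with mean changes of 0.06 ± 0.28 and 0.13 ± 0.36 (SD), given here and below for single cows on the log2(CPM + 1) scale.

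miR-223 moved in both directions in HOLS. It was at 7.01, 8.27, 7.98, 35.7 and 7.58 CPM in CONT and at 9.63, 24.4, 4.21, 20.6 and 6.13 CPM in REST, and thus higher in 2 of 5 cows. Cow 1155 was the highest in CONT and cow 8200 the highest in REST.

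Without the cow in the model, none of the 8 members passed the threshold in HOLS by edgeR's quasi-likelihood test at a Benjamini-Hochberg adjusted p of 0.05, where 2.41% of the 374 miRNAs tested were called. In that test 3 of the 8 had an unadjusted p under 0.05, and DESeq2 called 1, miR-155 (adjusted p = 0.0495), beside 5.46% of the miRNAs it tested. With the cow as a block, which compares each cow with itself, 5 of 8 rose, where 16.3% of all miRNAs tested were called (30 higher and 31 lower). Shares of all miRNAs called count both directions throughout. By edgeR with this block miR-146b rose 1.72-fold (log2 fold change 0.78 ± 0.10, SE, adjusted p = 0.000657), miR-155 rose 1.45-fold (0.54 ± 0.11, adjusted p = 0.011) and miR-342 rose 1.39-fold (0.47 ± 0.10, adjusted p = 0.00983).

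miR-142-5p rose 1.26-fold (log2 fold change 0.33 ± 0.10, edgeR adjusted p = 0.0476) and miR-146a rose 1.29-fold (0.37 ± 0.12, edgeR adjusted p = 0.0491) with the same block, both close to the threshold. The members that did not pass were miR-142-3p (0.12 ± 0.11), miR-150 (0.19 ± 0.13) and miR-223 (0.04 ± 0.29). The median log2 fold change of the 8 members was 0.35 with the block, beside 0.01 over all miRNAs tested. With library totals in place of TMM the median of all miRNAs in HOLS moved to -0.15 and that of the members to 0.20, against 0.02 and 0.38 under TMM, both without the block, and miR-142-3p and miR-150 turned below 0.

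The HOLS calls with the block differed in how they held when 1 cow was left out. miR-146b stayed past the threshold without each of the 5 cows (highest edgeR adjusted p = 0.00783). miR-155 was lost only without cow 9195 (edgeR adjusted p = 0.0604) and miR-342 only without cow 1165 (edgeR adjusted p = 0.0524). miR-146a was lost without cow 1155, 1165 or 9195 (edgeR adjusted p up to 0.204), and miR-142-5p was kept only without cow 2182, with edgeR adjusted p-values between 0.0409 and 0.171.

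In MONT, none of the 8 members passed the threshold, with or without the block, and 0% of the 349 miRNAs tested were called in either fit. The edgeR test gave 1 member an unadjusted p under 0.05, and DESeq2 called none either. The values of single cows were nonetheless one-sided for several members. miR-155, miR-146b, miR-342 and miR-142-5p were each higher in REST in 5 of 6 cows, and the exception was cow 9615 for all 4 of them.

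miR-146b ranged from 486 to 3841 CPM in MONT in CONT (median 930) and from 669 to 2187 CPM in REST (median 1602). The CONT libraries other than that of cow 9615 held 486 to 1719 CPM. miR-155 ranged from 76.9 to 258 CPM in CONT (median 106) and from 109 to 202 CPM in REST (median 169). Cow 9615 gave the highest CONT value of both miRNAs.

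miR-342 ranged from 102 to 249 CPM in CONT (median 132) and from 140 to 230 CPM in REST (median 189). miR-142-5p ranged from 1485 to 3224 CPM in CONT (median 2237) and from 1650 to 3381 CPM in REST (median 2715). Both overlapped widely between the periods. miR-146a and miR-142-3p were higher in REST in 3 and 2 of 6 cows, and miR-150 in 4 of 6.

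miR-223, the myeloid member, was lower in REST in 6 of 6 MONT cows by the labels, cow 9615 among them. It was at 6.55, 66.2, 12.1, 4.54, 12.9 and 9.71 CPM in CONT in cows 5663, 9615, 1613, 1640, 1652 and 2614, and at 3.67, 14.0, 4.87, 3.31, 9.34 and 8.56 CPM in REST. The drop was not past the threshold after adjustment (log2 fold change -1.30 ± 0.60, edgeR unadjusted p = 0.0482, adjusted p = 0.362, and -0.91 ± 0.27 with the block, unadjusted p = 0.0102, adjusted p = 0.292). Its mean change was -0.83 ± 0.74 (SD) on the log2 scale, with the largest drop in cow 9615 (-2.16).

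Without cow 9615, 6 of 8 members passed the threshold in MONT with the cow as a block, where 39.1% of the 358 miRNAs tested were called. miR-146b rose 1.77-fold (log2 fold change 0.82 ± 0.17, edgeR adjusted p = 0.00429), miR-342 rose 1.49-fold (0.57 ± 0.13, edgeR adjusted p = 0.007) and miR-155 rose 1.48-fold (0.57 ± 0.15, edgeR adjusted p = 0.0128). miR-150 rose 1.43-fold (0.51 ± 0.15, edgeR adjusted p = 0.0192) and miR-142-5p rose 1.29-fold (0.37 ± 0.13, edgeR adjusted p = 0.049).

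In the same 5 cows miR-223 fell by 0.63 on the log2 scale (± 0.21, edgeR adjusted p = 0.0381), to 0.647 of its CONT level, and was the single member called in that direction. miR-146a (0.23 ± 0.13) and miR-142-3p (0.14 ± 0.13) did not pass. Without cow 9615 and without the block, 12.8% of all miRNAs were called and none of the members, of which 3 had an unadjusted p under 0.05 by edgeR. The member calls in MONT thus needed both the block and the removal of that cow.

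**Figure D2:**
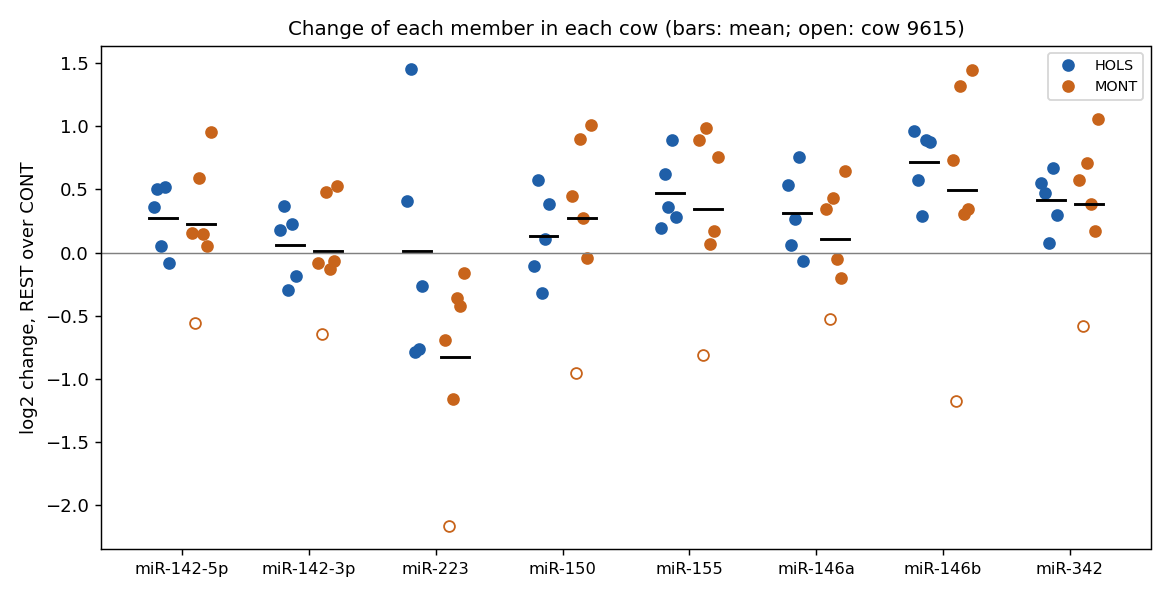
Log2 change from CONT to REST (vertical axis) of each member in each cow, HOLS in blue, MONT in orange, with the mean of each breed as a bar and cow 9615 as open points. Cow 9615 is the lowest MONT point for all 8 members; miR-223 is below 0 in all 6 MONT cows and spreads from -0.79 to 1.46 in HOLS.

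With both breeds in 1 fit, none of the 8 members passed the threshold without the block, where 9.02% of 388 miRNAs were called. miR-342 alone had an unadjusted p under 0.05 by edgeR (0.0212), and DESeq2 called no member, beside 13.9% of the miRNAs it tested. With the block 2 members rose, where 14.4% were called (17 miRNAs higher and 39 lower). The 2 were miR-146b, by 1.53-fold (log2 fold change 0.61 ± 0.19, edgeR adjusted p = 0.0442), and miR-342, by 1.32-fold (0.40 ± 0.12, edgeR adjusted p = 0.0424). Each was higher in REST in 10 of 11 cows. Neither call was stable: miR-146b was lost without any single cow other than 9615 and miR-342 without any other than 9615 or 9195, each with edgeR adjusted p-values up to 0.0847.

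In a fit that called 44.1% of all miRNAs (86 higher and 85 lower), edgeR with the block and without cow 9615 called 6 of 8 members, all of them higher in REST. These were miR-146b (0.80 ± 0.11, edgeR adjusted p = 0.000269), miR-342 (0.53 ± 0.09), miR-155 (0.56 ± 0.10), miR-142-5p (0.35 ± 0.09), miR-150 (0.35 ± 0.11) and miR-146a (0.30 ± 0.10). Without the block and without that cow 3 were called, miR-155, miR-146b and miR-342, beside 31.2% of all miRNAs. miR-223 was not called in any of these fits of both breeds (-0.75 ± 0.47 without the block, -0.50 ± 0.26 with it, and -0.28 ± 0.23 with it and without cow 9615).

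**Figure D3:**
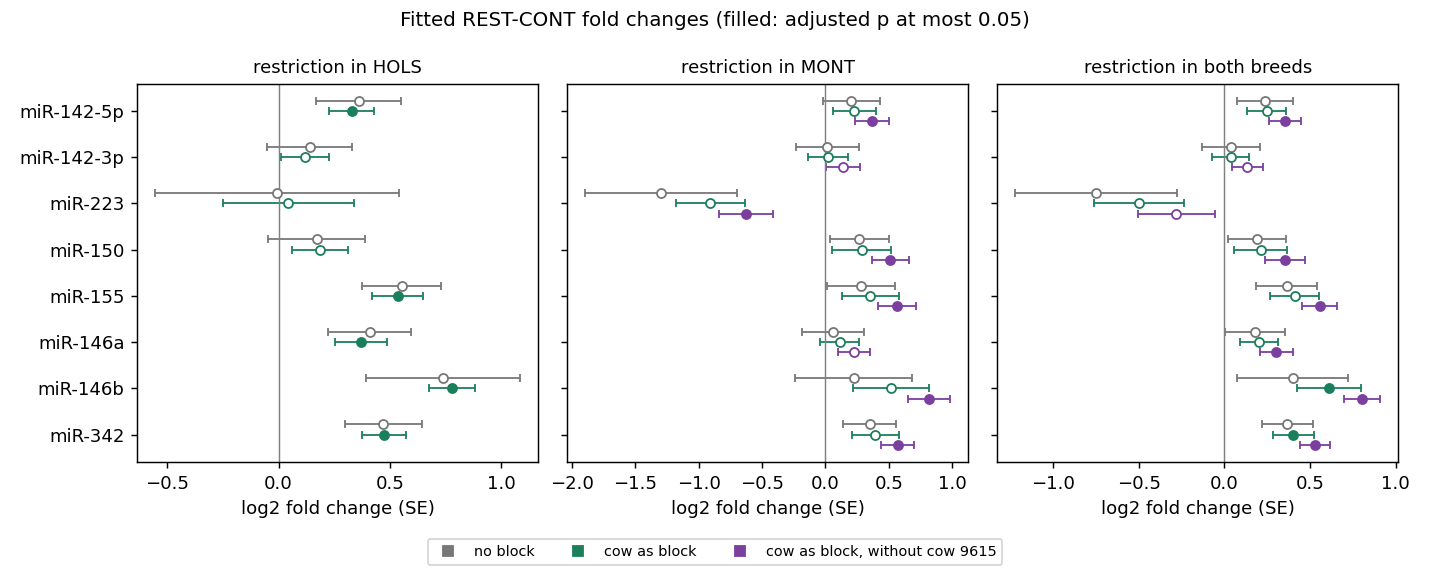
Fitted log2 fold change of REST over CONT with its SE (horizontal axes) for each member, without a block (grey), with the cow as a block (green) and with the block and without cow 9615 (violet). Filled points have an edgeR adjusted p of at most 0.05: 5 members in HOLS with the block, 6 in MONT with the block and without cow 9615, and 2 and 6 in both breeds.

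Whether the change differed between the breeds was tested by the interaction of breed and period. None of the 8 members and 0% of the 388 miRNAs passed the threshold by edgeR, with or without the block. The difference of the changes, HOLS minus MONT, ran from -0.13 ± 0.35 for miR-150 to 1.32 ± 0.90 for miR-223, with an unadjusted p of 0.157 by edgeR for the latter and none of the 8 under 0.05, and DESeq2 called none. Without cow 9615 and with the block, 5.93% of all miRNAs were called, and still none of the members. The direction of the difference itself rested on that cow: 7 of 8 members were above 0 with it (median 0.18) and 2 of 8 without it (median -0.08, or -0.11 with the block). Without it miR-146b moved from 0.51 to -0.09 and miR-223 from 1.32 to 0.53.

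Among the members the breeds differed most in miR-146b, and the quality of their libraries differed too. In CONT it was at 244 to 703 CPM in HOLS (median 505) and 486 to 3841 CPM in MONT (median 930), a log2 difference of HOLS minus MONT of -1.58 ± 0.48 (edgeR adjusted p = 0.0476), where 7.47% of 388 miRNAs were called. It was the only member called of the 8, and DESeq2 called it too (adjusted p = 0.0178, beside 5.24% of the miRNAs it tested). The call was lost with library totals in place of TMM (edgeR adjusted p = 0.0627), with no filter on low counts (0.0945) and without any single cow except 1613 or 2614 (edgeR adjusted p from 0.0276 to 0.193). Without cow 9615 the difference was -0.98 ± 0.40 (edgeR adjusted p = 0.193), and 0.515% of all miRNAs were called.

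In REST miR-146b was at 464 to 1222 CPM in HOLS (median 754) and 669 to 2187 CPM in MONT (median 1602). The difference was -1.06 ± 0.47 (edgeR unadjusted p = 0.0343, adjusted p = 0.123), and none of the 8 members passed the threshold, where 13.7% of all miRNAs were called. miR-150, the lymphoid member, was at 68.0 to 128 CPM in HOLS in REST (median 82.4) and 79.6 to 178 CPM in MONT (median 129), with a difference of -0.53 ± 0.25 (edgeR unadjusted p = 0.0448, adjusted p = 0.146). DESeq2 called none of the members in REST, beside 20.7% of the miRNAs it tested. Without cow 9615, miR-150 was called (-0.66 ± 0.23, edgeR adjusted p = 0.0394, beside 26% of all miRNAs) and miR-146b was not (edgeR adjusted p = 0.0542).

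The other members did not pass the threshold between the breeds. miR-155 was lower in HOLS by value in both periods (-0.52 ± 0.26 in CONT, edgeR adjusted p = 0.227, and -0.29 ± 0.25 in REST, edgeR adjusted p = 0.438). miR-223 had a difference of -0.48 ± 0.64 in CONT and 0.85 ± 0.64 in REST, and the former turned to 0.53 ± 0.52 without cow 9615.

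Ratios of 2 members in the same library were then compared, because a ratio does not depend on how libraries are scaled. A ratio is given on the log2 scale after 1 was added to each count, with miR-142-5p as the common reference, and 9 ratios were tested in each comparison, with Benjamini-Hochberg adjustment over the 9. Changes were tested over cows by a two-sided exact sign-flip permutation test, which cannot go below p = 0.0625 with 5 cows, 0.03125 with 6 and 0.000977 with 11. The ratios share members, so they are not independent of each other.

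The ratio of the arms, miR-142-3p over miR-142-5p, fell in 11 of 11 cows. Its mean log2 change was -0.21 ± 0.11 (SD), a fold of 0.864, with an exact permutation p of 0.000977, the smallest the 11 cows allow (adjusted p = 0.00879). The 3p arm was 0.0442 to 0.0465 of the 5p arm in HOLS in CONT and 0.0347 to 0.0417 in REST, so that the periods did not overlap. In MONT the ratios of the periods overlapped, at 0.0335 to 0.0592 in CONT and 0.0285 to 0.0481 in REST. With any 1 cow left out the mean change lay between -0.22 and -0.19, and the highest adjusted exact permutation p was 0.0176. A fall in 11 of 11 cows stays a fall in every cow left, so this p could not miss the threshold. The change had the same mean in both breeds (-0.21 in HOLS and -0.21 in MONT).

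The activation member miR-146b rose against miR-142-5p in 10 of 11 cows, by 0.35 ± 0.42 (adjusted exact permutation p = 0.0381), while miR-146a did not (-0.05 ± 0.24, 6 of 11 cows higher, adjusted exact permutation p = 0.601). In the same way miR-146a over miR-146b fell in 10 of 11 cows, by 0.40 on the log2 scale (± 0.45, adjusted exact permutation p = 0.0381). miR-342 over miR-142-5p rose in 9 of 11 cows, by 0.15 ± 0.15 (adjusted exact permutation p = 0.0308). miR-155 over miR-142-5p was higher in 7 of 11 cows (0.16 ± 0.31, adjusted exact permutation p = 0.156), and the lymphoid ratio of miR-150 over miR-142-5p in 6 of 11 (-0.04 ± 0.34, adjusted exact permutation p = 0.717).

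The myeloid member fell against the pan-leukocyte and the lymphoid member over the 11 cows. miR-223 over miR-142-5p was lower in 9 of 11 cows, by 0.74 on the log2 scale on average (mean change -0.74 ± 0.84, adjusted exact permutation p = 0.0381), and miR-223 over miR-150 in 9 of 11 (-0.71 ± 0.88, adjusted exact permutation p = 0.0381). Both were lower in 6 of 6 MONT cows (-1.13 ± 0.56 and -1.18 ± 0.61, each with the smallest exact permutation p that 6 cows allow, 0.03125, and an adjusted p of 0.0938). In HOLS they were higher in 2 of 5 cows (-0.27 ± 0.93 and -0.13 ± 0.84). The test of the difference between the breeds gave an exact permutation p of 0.0909 for miR-223 over miR-142-5p and 0.0346 for miR-223 over miR-150, neither of which passed after adjustment (0.409 and 0.312).

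The calls other than that of the arm ratio, which leaving out a cow could not undo, depended on single cows. miR-223 over miR-142-5p, miR-223 over miR-150 and miR-146b over miR-142-5p each kept their adjusted exact permutation p under the threshold without 2 of the 11 cows in turn and missed it without the other 9 (p up to 0.0762). miR-223 over miR-142-5p and over miR-150 were kept without cow 1165 or 8200, and miR-146b over miR-142-5p without cow 8200 or 9615. miR-342 over miR-142-5p was kept without 4 of them (1165, 8200, 9195 and 9615), and miR-146a over miR-146b without 1 (9615). With a cow left out, the mean change lay between -0.92 and -0.63 for miR-223 over miR-142-5p and between 0.13 and 0.17 for miR-342 over miR-142-5p.

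Between the breeds, miR-146b over miR-142-5p did not overlap in either period. It was 0.126 to 0.312 in HOLS and 0.327 to 1.19 in MONT in CONT, and 0.191 to 0.368 in HOLS and 0.405 to 0.774 in MONT in REST. The log2 difference was -1.16 in CONT and -0.98 in REST, each with a two-sided exact permutation p of 0.00433, the smallest that 5 against 6 cows allow (adjusted p = 0.039 and 0.0195). In REST the adjusted exact permutation p was at most 0.0429 with any 1 cow left out. Both this ratio and miR-146a over miR-146b stay apart in REST without any 1 cow. That outcome was thus fixed and was no test of the REST call. With 1 cow left out and a single ratio at the smallest p, as in CONT, the adjusted exact permutation p cannot go below 0.0714 or 0.0857, so that leaving out a cow was no test of the CONT call. The log2 difference of miR-146b over miR-142-5p in CONT was -1.29 to -0.90 with a cow left out. miR-146a over miR-146b did not overlap in REST either (difference 1.04, adjusted exact permutation p = 0.0195), and in CONT it did (1.06, adjusted exact permutation p = 0.136).

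**Figure D4:**
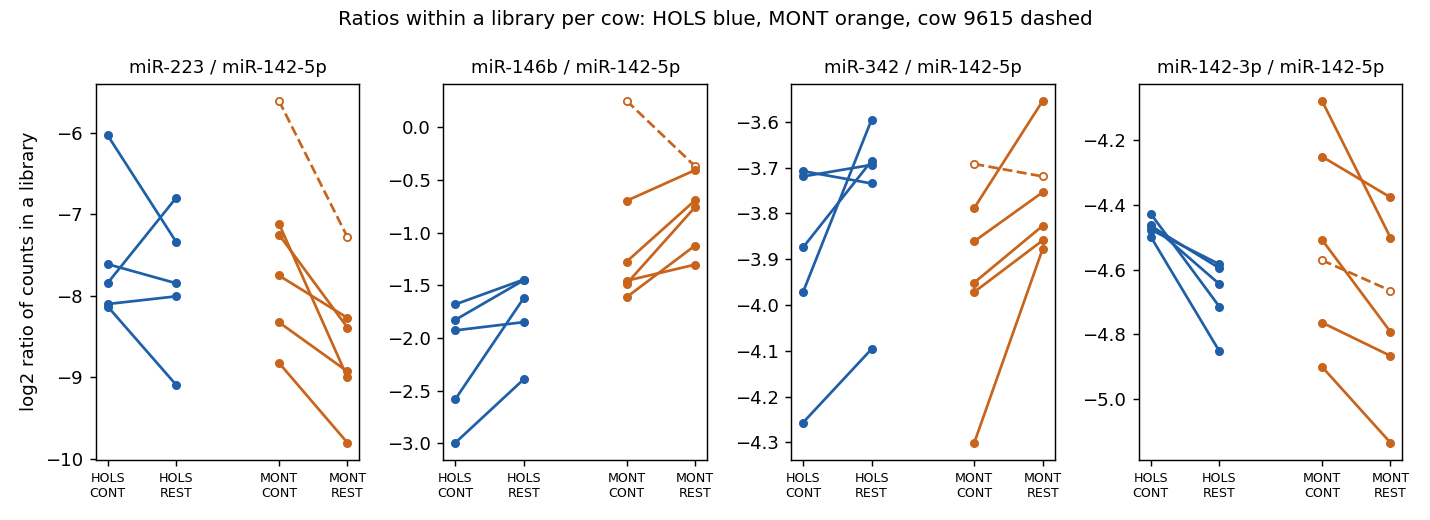
Log2 ratio of the counts of 2 members in the same library (vertical axes), with a line from CONT to REST for each cow, HOLS in blue, MONT in orange and cow 9615 dashed. miR-142-3p over miR-142-5p falls in 11 of 11 cows, miR-146b over miR-142-5p lies lower in HOLS than in MONT in both periods, and miR-223 over miR-142-5p falls in 6 of 6 MONT cows.

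The log2 changes of 2 members were compared over the 11 cows for all 28 pairs, with permutation tests of 100000 resamples adjusted over the 28. Among the 7 members other than miR-223 the changes went together: Pearson's r of the 21 pairs was 0.54 to 0.96 (median 0.84), and 20 pairs had an adjusted permutation p of at most 0.05. By Spearman's rho (0.39 to 0.95) 18 of the 21 did. The changes share the scaling of their libraries, and with library totals in place of TMM r was 0.60 to 0.96.

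These correlations rested in large part on cow 9615. Without it, 4 of the 28 pairs passed: miR-142-5p with miR-142-3p (r = 0.94, adjusted permutation p = 0.0028), miR-142-5p with miR-342 (r = 0.90), miR-142-3p with miR-342 (r = 0.84) and miR-146b with miR-342 (r = 0.86), the last 3 at an adjusted permutation p of 0.012. Over the 10 cows r of the 21 pairs still had a median of 0.70, with a range of 0.20 to 0.94. Without the 2 cows farthest from the median, which included cow 9615 in every pair, r was 0.35 to 0.94. Within the 6 MONT cows, which include cow 9615, r was 0.83 to 0.99, and 19 of 21 pairs passed by the exact permutation test after adjustment.

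miR-223 did not follow the others. Its 7 pairs had r of 0.26 to 0.54 and Spearman's rho of -0.08 to 0.40 over the 11 cows, and none passed (adjusted permutation p from 0.103 to 0.442 for r). Without cow 9615 they lay between -0.26 and 0.25. Within MONT they were 0.57 to 0.76, and none passed by the exact permutation test.

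**Figure D5:**
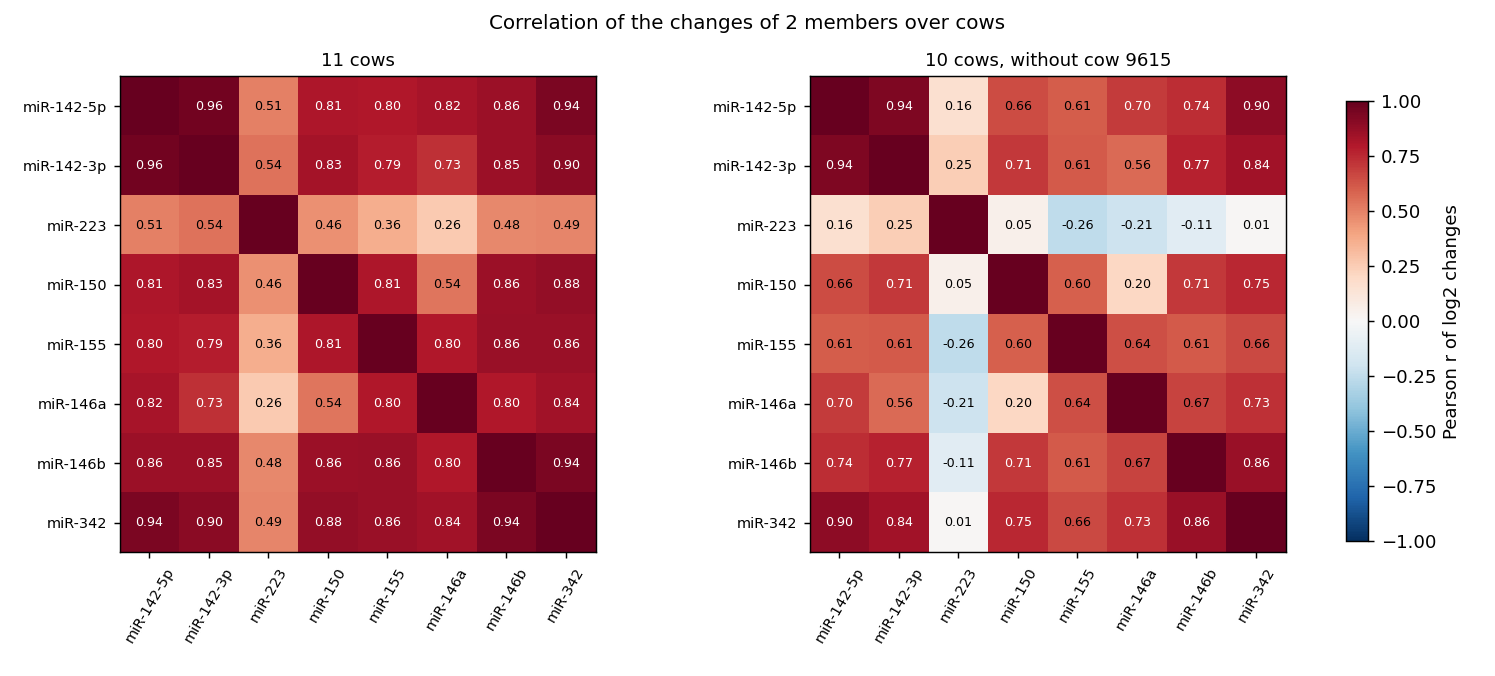
Pearson's r between the log2 changes of each 2 members over 11 cows (left) and over 10 cows without cow 9615 (right), from -1 in blue to 1 in red, with r written in each cell. miR-223 has r of 0.26 to 0.54 on the left and -0.26 to 0.25 on the right, and the other pairs 0.54 to 0.96 and 0.20 to 0.94.

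Among the miRNAs that are not members, those whose levels were most like those of 4 members were found over the 22 libraries, after the mean of each breed and period was taken off. For miR-142-5p these were bta-miR-99a-5p (r = 0.80), bta-miR-2285k (0.79) and bta-miR-874 (0.78), and for miR-155 they were bta-miR-874 (0.84), chr21_21957_mature, a predicted miRNA (0.82), and bta-miR-99a-5p (0.81). For miR-150 they were bta-miR-222 (0.80), chr21_21957_mature (0.78) and bta-miR-6524 (0.76), and for miR-223 they were bta-miR-296-3p (0.69), bta-miR-361 (0.68) and bta-miR-874 (0.67). For miR-142-5p, miR-155 and miR-150 a member was closer than these: miR-342 (r = 0.89), miR-146b (0.85) and miR-142-3p (0.82), in that order. For miR-223 none was closer than bta-miR-296-3p (0.69), and its closest member was miR-146a (0.68). These r are descriptions over libraries that share cows and scaling.

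Of 20 other miRNAs known from blood cell or inflammatory settings, 19 were present. In HOLS none of them passed without the block, and with it 3 rose and 1 fell: bta-miR-181a (log2 fold change 0.45 ± 0.11, edgeR adjusted p = 0.0256), known from lymphocyte development, its relative bta-miR-181b (0.46 ± 0.09, edgeR adjusted p = 0.00983) and bta-miR-222 (0.48 ± 0.12, edgeR adjusted p = 0.0216) rose, and bta-miR-326 fell by 0.51 on the log2 scale (± 0.12, edgeR adjusted p = 0.0172). These 4 of 19 stand beside 16.3% of all miRNAs called in that fit. In MONT none of the 19 passed, with or without the block. Without cow 9615, 4 of the 19 rose there without the block (beside 12.8% of all miRNAs), and 6 rose and 2 fell with it (beside 39.1%), led by bta-miR-125b (0.97 ± 0.12, edgeR adjusted p = 0.00119) and bta-miR-222 (1.02 ± 0.14, edgeR adjusted p = 0.00119). The median of the 19 in HOLS with the block was 0.13, below the 0.35 of the members.

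In both breeds together 4 of the 19 rose and 1 fell without the block, where 9.02% of all miRNAs were called, and 4 rose and 3 fell with it, where 14.4% were. Without cow 9615 these counts were 6 and 2 (beside 31.2%) and 8 and 4 (beside 44.1%). The 4 that rose with all cows were bta-miR-181a (0.47 ± 0.10 with the block, higher in 11 of 11 cows), bta-miR-181b (0.38 ± 0.09, 11 of 11 cows), bta-miR-222 (0.60 ± 0.16, 10 of 11 cows) and bta-miR-125b (0.51 ± 0.16, 9 of 11 cows), with edgeR adjusted p-values between 0.00858 and 0.0481. bta-miR-326 fell with and without the block, and bta-miR-210, the miRNA of the hypoxia response, and bta-miR-20b fell with it. Between the breeds, 4 of the 19 were lower in HOLS than in MONT in REST (bta-miR-125a, bta-miR-125b, bta-miR-221 and bta-miR-222, log2 differences from -0.87 to -0.68 by edgeR). They stand beside 13.7% of all miRNAs called (19 higher and 34 lower in HOLS), and none of the 19 passed in CONT. Without cow 9615, 5 of the 19 were lower in REST, beside 26%.

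miRNAs of other cell types were followed in the same fits. In HOLS with the block, 1 of 3 red blood cell miRNAs (bta-miR-486), 1 of 2 endothelial (bta-miR-126-3p) and 2 of 6 smooth muscle and stromal miRNAs (bta-miR-143 and bta-miR-145) rose by edgeR, and 3 of 10 epithelial miRNAs (bta-miR-200b, bta-miR-200c and bta-miR-429) fell, in a fit that called 16.3% of all miRNAs. In MONT none of these lists had a member that passed. Without cow 9615 and with the block, where 39.1% were called, 6 of 10 epithelial miRNAs fell there and 4 of 6 smooth muscle and stromal miRNAs rose. In HOLS with the block, the smooth muscle and stromal miRNAs had a median log2 fold change of 0.30, against 0.35 for the members. The endothelial median was 0.31, and the red blood cell and epithelial medians were -0.13 and -0.13. In MONT with the block, the smooth muscle and stromal median was 0.72, above the 0.26 of the members, and the endothelial median was -0.097. Without cow 9615 these 3 medians were 0.999, 0.44 and -0.21. The summed level of the epithelial miRNAs was 41800 to 52920 CPM in HOLS in CONT and 30390 to 59040 CPM in REST, and in MONT it was 21190 to 53310 and 14940 to 37650 CPM. That of the red blood cell miRNAs was 2360 to 4022 and 3474 to 4223 CPM in HOLS, and 2317 to 5429 and 1124 to 4538 CPM in MONT, higher in REST in 4 of 5 HOLS and 2 of 6 MONT cows. Nearly all of that sum was bta-miR-486 (3000 ± 698 CPM in HOLS in CONT and 3779 ± 264 CPM in REST, SD), while bta-miR-451, at 196 ± 33.8 and 174 ± 45.3 CPM, and bta-miR-144, at 7.98 ± 1.36 and 7.28 ± 2.31 CPM, had changes of -0.14 ± 0.13 and -0.13 ± 0.17 (SE) with the block and did not pass. The part of these cell types in the changes of the members was not tested.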

How the data were processed

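Small RNA was measured in 22 mammary biopsy libraries. The authors demultiplexed reads with bcl2fastq 2.17.1.14, trimmed adapters with the FASTX-Toolkit, annotated reads with ncPRO-seq and aligned and identified miRNAs with miRDeep2. The deposited counts are whole numbers per miRNA without normalization, and 22 columns of the authors' normalized counts and the columns of their own DESeq2 1.18.1 comparisons (fold changes and p-values) were not used. How reads that match several similar miRNAs were counted is not given in the sources used here, and no member had the same counts as another miRNA.

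The members and lists were chosen with earlier results of these data known. Counts were tested with edgeR 4.0.16 (R 4.3.3) by quasi-likelihood F tests with TMM, a filter at a minimum count of 10 (filterByExpr) and Benjamini-Hochberg adjustment over all miRNAs tested, at 0.05. The SE given for an edgeR log2 fold change was derived from the test, as its absolute value divided by the square root of the F statistic. DESeq2 1.42.0 was an alternative. Exact permutation tests of ratios were run in SciPy 1.17.1, and permutation tests of correlations in NumPy 2.4.6. The fits were tested on simulated counts. Changes per cow (on CPM) and ratios (on counts) used a pseudocount of 1, and the miRNAs most like a member were ranked by Pearson's r with a prior count of 2. All 8 members were named. Of the other lists, at most 4 miRNAs past the threshold were named by lowest p, and bta-miR-210 and bta-miR-20b beyond them after their values were seen.

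The cow number in the labels pairs the 2 libraries of an animal. The 2 deviated together in 9 of 11 cows at r of at least 0.29, in cow 2614 at 0.06 and in cow 9615 at -0.24, so the cow was fitted as a block (an alternative to the fit without it), and leaving out a cow under the block was added after seeing the data. Depth and replicate spread limit precision. The fits without the block, the breed comparisons among them, treat the 2 libraries of a cow as independent. Those with the block use the spread of changes within cows. The p-values cover these cows only.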

Additional observations from a re-analysis of the deposited data

Results flagged for a closer look

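In 4 of 32 groups of libraries 1 library lay far from the rest, where about 1.6 are flagged by chance. miR-146b in MONT in CONT was 3841 CPM in cow 9615, against 486 to 1719 CPM in the other 5 cows. miR-223 in the same group was 66.2 CPM in cow 9615, against 4.54 to 12.9 CPM. miR-223 in HOLS in CONT was 35.7 CPM in cow 1155, against 7.01 to 8.27 CPM. miR-342 in HOLS in REST was 118 CPM in cow 2182, against 181 to 204 CPM. The cause of these values was not tested.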

How the results depend on the processing

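Other processing was tried for each comparison. In HOLS the count of members called was 0 as reported, 1 with DESeq2 and 5 with the cow as a replicate block (2, 2, 3, 4 and 5 with the block and 1 cow left out). In MONT it was 0, also with the block, and 6 with the block and without cow 9615. In both breeds it was 0, with the block 2, and with a cow left out 0 to 3, or 0 to 6 with the block. For the breeds in CONT it was 1, with library totals alone 0, with no filter on low counts 0, and 0 to 1 with a cow left out, and in REST 0 to 1. The block changed no other count of members called. Ratios past the threshold were 6 in both breeds (1 to 6 with a cow left out) and 1 between the breeds in CONT (0 with any cow left out, where a single ratio at the smallest p of 10 cows cannot pass), and correlated pairs were 20 (4 to 21).

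Some directions turned. bta-miR-223 in HOLS was 0.044 with the replicate block, 0.28, 0.10 and 0.20 with the block and without cow 1155, 2182 or 9195, and -0.49 to 0.56 without the block and with a cow left out. Between the breeds in CONT it was -1.34 to 0.53. bta-miR-142-3p was -0.042 in HOLS and -0.015 in both breeds with library totals. In MONT it was -0.00055 with DESeq2's size factors in edgeR, -0.072 to 0.15 with a cow left out, and -0.049, -0.014 and -0.045 with the block and without cow 1613, 1652 or 2614. bta-miR-150 was -0.021 in HOLS with library totals, and its interaction was -0.38 to 0.031 with a cow left out, and 0.0037 and 0.019 with the block and without cow 1613 or 2614. The interaction of 5 more members turned without cow 9615, with ranges over left-out cows of -0.079 to 0.40 for bta-miR-155, -0.094 to 0.68 for bta-miR-146b, -0.058 to 0.26 for bta-miR-142-5p, -0.072 to 0.20 for bta-miR-142-3p and -0.16 to 0.22 for bta-miR-342. With the block and without cow 9615 it was -0.10, -0.11, -0.11, -0.092 and -0.17 in that order, and with library totals it turned for the last 3 (-0.018, -0.050 and -0.034). bta-miR-146a in MONT was -0.024 to 0.22, miR-150 over miR-142-5p in both breeds -0.088 to 0.0065, and miR-223 over miR-150 in HOLS -0.41 to 0.060. The causes were not tested. The low counts of miR-223 limit its precision.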

Other observations

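The summed level of the 8 members and that of the 10 epithelial miRNAs changed in opposite directions in 10 of 11 cows. In 9 of them the members were higher and the epithelial miRNAs lower in REST, with the largest pair of changes in cow 2614 (log2 1.02 and -1.03), and in cow 9615 it was the reverse (-0.82 and 0.82). In cow 1165 both were higher (0.43 and 0.22). Some of the epithelial falls were small, at -0.015 in cow 1155, -0.050 in cow 9195 and -0.096 in cow 1640. Much of the epithelial sum was bta-miR-141, with a mean of 31270 of 46890 CPM in HOLS in CONT. With the cow as a block, bta-miR-141 had an edgeR log2 fold change of 0.007 ± 0.13 (SE) in HOLS and -0.33 ± 0.28 in MONT. The members and the red blood cell miRNAs changed in the same direction in 5 of 11 cows. The smooth muscle and stromal sum moved mostly with the members. It was higher in REST in 5 of 5 HOLS and 4 of 6 MONT cows, against 5 of 5 and 5 of 6 for the members. In cow 9615 both were lower (-0.018 and -0.82). The exception was cow 1652, where it fell (-0.66) and the members rose (0.13). Changes of sums are on the log2 scale. These levels share 1 total per library, so these signs are not independent, and these comparisons were chosen after the values were seen.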
